A study of Mus musculus with 18 samples.

Results

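The cytosolic sulfotransferases of the liver are described here in ovariectomized obese female mice treated with vehicle, 17β-estradiol (E2) or PaPE-1, a pathway preferential estrogen designed to favor extranuclear over nuclear estrogen receptor signaling. The 10 genes followed were Sult1a1, Sult1b1, Sult1c2, Sult1d1, Sult1e1, Sult2a1, Sult2a7, Sult2a8, Sult3a1 and Sult5a1. They were taken by name from the 40840 genes of the 2 count tables. The naming rule used no measured value, but the choice was made with earlier results of these data known. In the diet-induced obese (DIO) model, wild-type C57BL/6 females ate a diet with 45% of calories as fat and 0.2% cholesterol, and their ovaries were removed after 1 week of feeding. In the ob/ob model, leptin-deficient females ate a normal AIN-76A diet, and ovariectomy came 1 week before treatment. All 6 groups, the vehicle controls included, were therefore ovariectomized, obese and female, and ages were not given in the sources used here. Osmotic minipumps delivered vehicle (DMSO, ethanol and saline), E2 at 5 μg/kg/day or PaPE-1 at 300 μg/kg/day for 6 weeks. Liver RNA was sequenced as 3 libraries per group, 18 in all. The sample records mention 2 samples per group. The paper describes its sequenced samples as biological replicates, as many per group as the libraries used here. This difference between the sources was not resolved, so p-values are described as measuring the spread between these libraries. Replicate numbers below only name libraries. Because the doses differ, PaPE-1 against E2 compares the treatments as given.

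Sulfotransferases move a sulfonate group from the cofactor PAPS onto hydroxyl or amino groups of small molecules, which makes them more water soluble and, for many hormones, inactive. Sult1e1 is the estrogen sulfotransferase: sulfated estradiol no longer binds estrogen receptors until a sulfatase removes the group. The Sult2a enzymes act on hydroxysteroids such as DHEA and on bile acids, the Sult1 enzymes mostly on phenols, catecholamines and thyroid hormones, and Sult3a1 on amines. In mouse liver several of these genes differ between the sexes, and Sult1e1 is known to be low in healthy liver and raised in obese, diabetic mice.

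Libraries held 16651616 to 21703791 counted reads for the DIO model and 10470665 to 17021370 for the ob/ob model. All 8 hepatocyte markers were detected in every group, with summed levels of 77375 to 152961 CPM (read counts scaled to a common TMM-normalized library size), so the liver label was met. A gene was tested where it passed a filter on low counts. All 10 sulfotransferases passed among 13884 genes of the DIO model, and 8 passed among 13433 genes of the ob/ob model, where Sult3a1 and Sult5a1 were too low. A few libraries stood apart, and results resting on them are given with and without them where the value moves. In DIO E2 replicate 2, Sult1e1, Sult3a1 and Sult5a1 lay well below the other E2 livers. In ob/ob vehicle replicate 3, Sult2a1 and Sult2a7 lay well above the other vehicle livers, and in ob/ob vehicle replicate 1, Sult1e1 lay well below them. Model and library preparation cannot be told apart, so levels in DIO and ob/ob liver are set side by side without a test.

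Divided by the exon length of each gene, the vehicle livers of the models differed in which of the 10 sulfotransferases was most abundant. The 11 other sulfotransferase genes of the count tables, Sult2a2 among them, were not ranked. In DIO vehicle liver, Sult2a1 had the highest mean level, 301 CPM per kb, and Sult2a8 followed at 192. Their libraries overlapped, so the order of these 2 was not resolved. Sult1d1 at 95.01 and Sult1a1 at 89.4 CPM per kb came next and also overlapped, then Sult2a7 at 36.3. Sult3a1 (17.0), Sult1b1 (12.7) and Sult1c2 (11.8 CPM per kb) overlapped in turn, and Sult5a1 (2.697) and Sult1e1 (2.34) shared the bottom of the order. In ob/ob vehicle liver, Sult1a1 led at 62.9 CPM per kb, above every library of the next gene. Sult1d1 (44.6) and Sult1e1 (31.4) followed, and from there each gene overlapped the next down to Sult2a7: Sult2a8 12.8, Sult1c2 7.75, Sult1b1 6.75, Sult2a1 4.67 and Sult2a7 1.31 CPM per kb. Sult3a1 (0.119) and Sult5a1 (0.0718 CPM per kb) were at the edge of detection. Sult1e1 thus stood last of 10 in DIO vehicle liver and 3rd in ob/ob vehicle liver, and Sult2a1 stood 1st and 7th. The ob/ob mean of Sult2a1 rests on vehicle replicate 3, without which it was 0.469 CPM per kb, below Sult2a7 at 0.523. Under treatment, Sult2a1 again had the highest mean in DIO liver with E2 (585 CPM per kb), and Sult2a7 was at 88.5 with PaPE-1. In ob/ob mice given E2 the means ran from Sult1a1 (107) over Sult2a1 (39.8) and Sult1d1 (37.1) to Sult1e1 (17.9), and with PaPE-1 from Sult1a1 (84.4) over Sult1e1 (53.8) to Sult1d1 (41.6 CPM per kb). Sult2a1 and Sult1d1 overlapped with E2, as did Sult1e1 and Sult1d1 with PaPE-1. The Sult1a1 value is low if short transcripts dominate, since its counted exons cover 4269 bases and its coding transcripts in GENCODE are 622 to 1370 bases long.

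**Figure D1:**
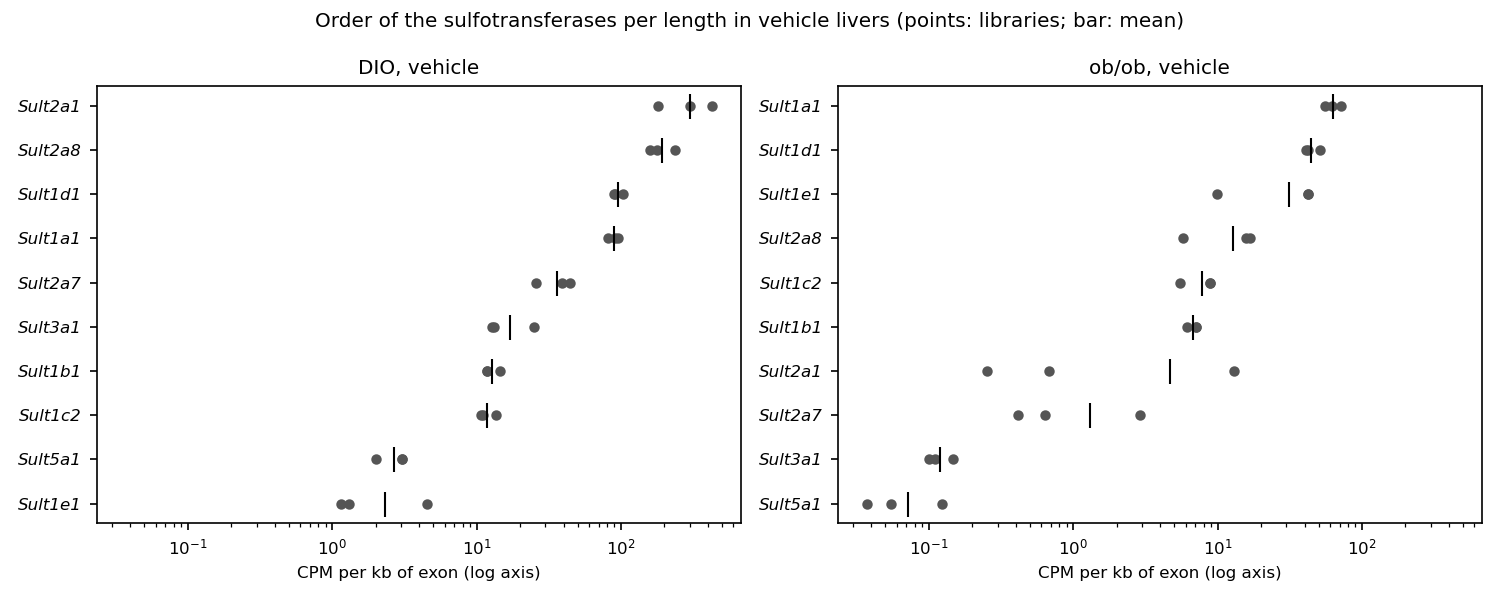
Mean level of each of the 10 sulfotransferases followed in vehicle liver (CPM per kb of exon, log axis), ordered by level, for DIO and ob/ob mice. Points show the 3 libraries of each group and a bar their mean. Sult2a1 leads at 301 in DIO liver and stands at 4.67 in that of ob/ob mice (0.469 without vehicle replicate 3), whereas Sult1e1 stands at 2.34 and 31.4.

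Across the 6 comparisons, few sulfotransferases passed an adjusted p of 0.05 in edgeR's quasi-likelihood test with Benjamini-Hochberg adjustment over all genes tested. E2 against vehicle in ob/ob liver called 2 of the 8 tested, both higher (Sult1a1 and Sult1c2), beside 9.81% of all genes called higher and 12.3% lower. PaPE-1 against E2 in DIO liver called 1 of 10, Sult2a7, higher, beside 0.0216% of genes called higher and 0.0144% lower. The other 4 comparisons within a model called none. In bulk liver, fewer cells of a type and less RNA per cell cannot be told apart.

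In DIO liver, PaPE-1 against vehicle called 0 of 10, beside 0% of genes higher and 0% lower. Without adjustment, edgeR put 4 above vehicle and 0 below it at p under 0.05, beside 21.1% of all genes. DESeq2 called 3 higher, beside 5.42% of genes, and limma voom 0, beside 0%. The median log2 fold change of the 10 genes was 0.49, beside −0.03 over all genes. All 10 estimates lay above 0, beside 6539 of 13884 genes. That of Sult5a1 (0.02, SE 0.47) changed sign in 5 of 15 alternatives. The summed hepatocyte markers were also higher, at 77375 to 90419 CPM with vehicle and 100494 to 121048 with PaPE-1, with 4 of 8 markers higher without adjustment and a median of 0.39, and their part in the sulfotransferase values was not tested. E2 against vehicle in DIO liver also called 0 of 10, beside 0% and 0% of genes. At the unadjusted threshold of 0.05, 4 were higher and 1 lower, beside 5.22% of all genes. DESeq2 called 0, beside 0.173% of genes, and limma voom 0, beside 0%. The median was 0.41, beside 0.01 over all genes, and 8 of 10 estimates lay above 0, beside 7138 of 13884 genes. For PaPE-1 against E2 in DIO liver the unadjusted count was 2 higher and 2 lower, beside 17% of genes.

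In ob/ob liver, PaPE-1 against vehicle called 0 of 8, beside 0% and 0% of genes, and 0 at an unadjusted p under 0.05, beside 2.65%. DESeq2 called 0, beside 0.0149% of genes, and limma voom 0, beside 0%. The median log2 fold change was 0.13, beside 0.00 over all genes. For E2 against vehicle the unadjusted count was the same 2 genes, beside 37.7% of all genes, and the median was 0.24, beside 0.01. PaPE-1 against E2 in ob/ob liver called 0 of 8, beside 10% of genes higher and 7.45% lower. Without adjustment, at p under 0.05, Sult1e1 was higher and Sult1c2 lower, beside 33.8% of genes. DESeq2 called 1, beside 18.9% of genes, and limma voom 2, beside 18%.

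**Figure D2:**
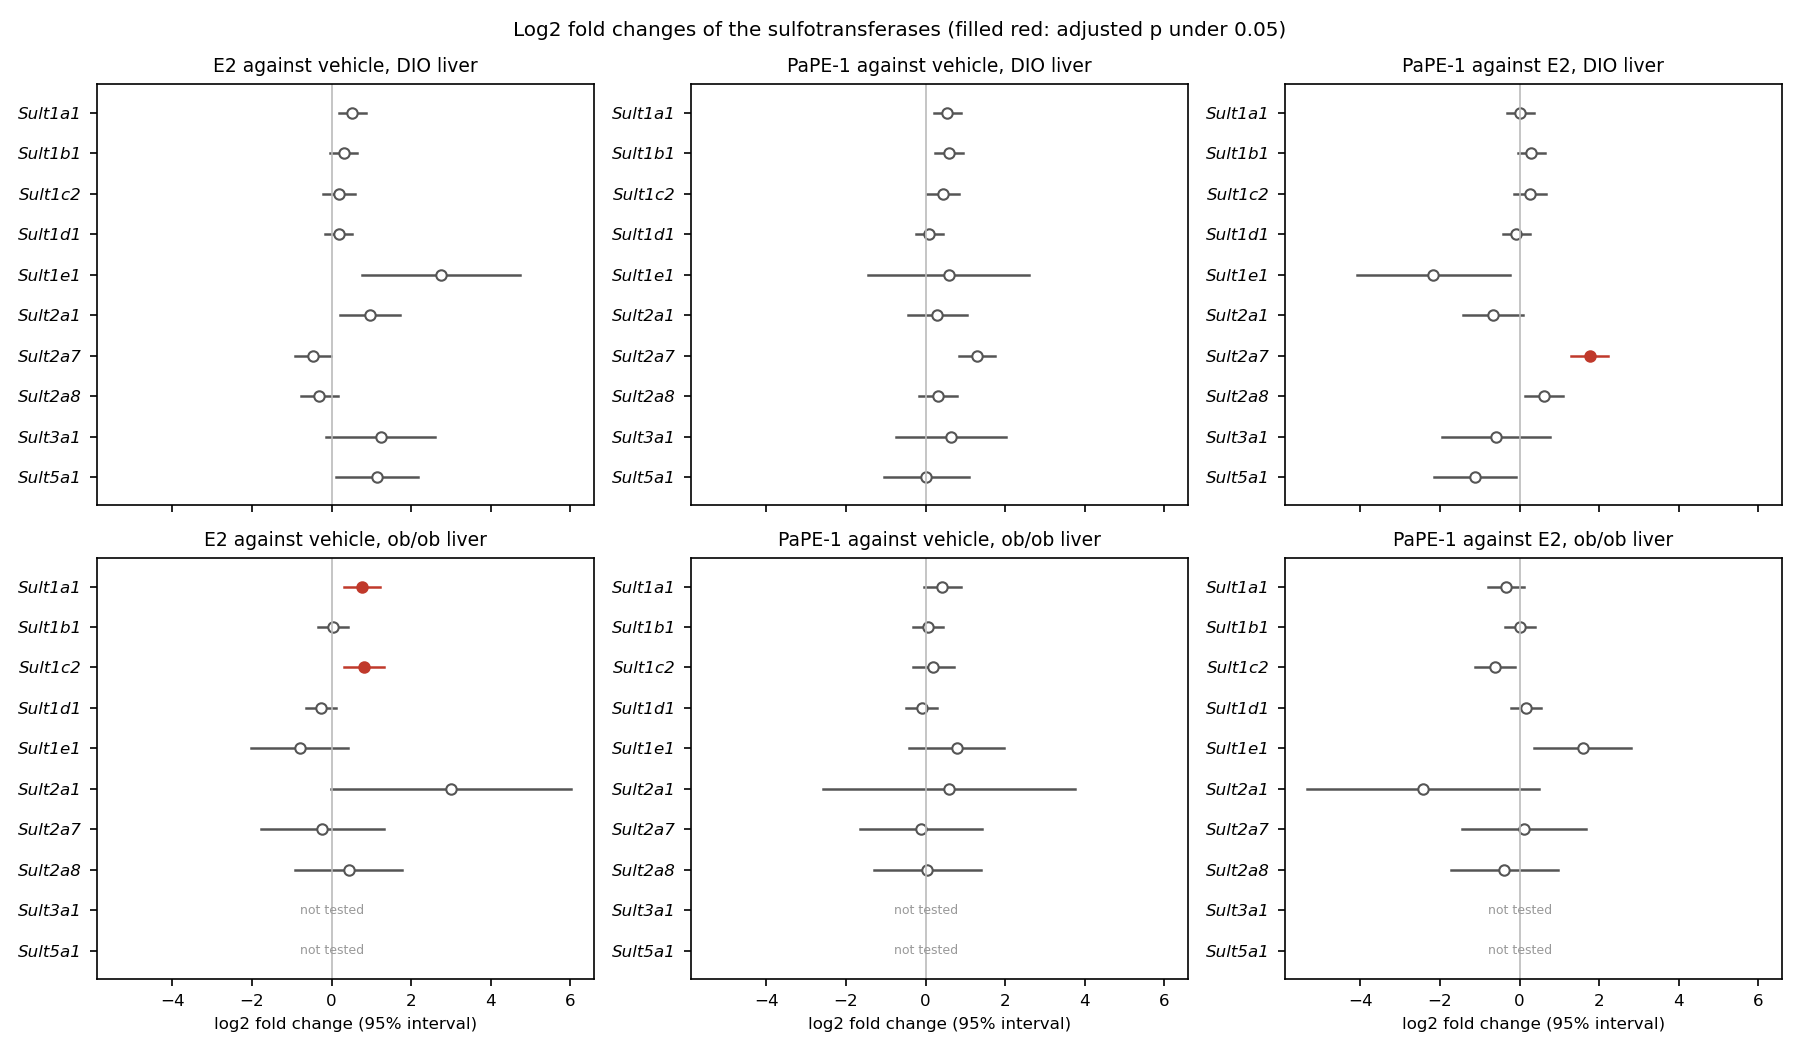
Log2 fold changes (x axis) of the 10 sulfotransferases (y axis) in the 6 comparisons within a model, with points for edgeR estimates, bars for 95% intervals and filled red points for adjusted p under 0.05. The filled points are Sult2a7 in PaPE-1 against E2 of DIO liver (1.76) and Sult1a1 (0.76) and Sult1c2 (0.81) in E2 against vehicle of ob/ob liver.

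Sult1e1, the estrogen sulfotransferase, lies on the minus strand of chromosome 5 (GRCm39, chr5:87723827-87739470), beside Sult1b1 (chr5:87661186-87686054) and Sult1d1 (chr5:87702509-87716865). The 250 bases before its start site are shown because the estimates of the E2 effect in the models lay further apart for it than for the other sulfotransferases. They are printed from RefSeq (GRCm38.p6, chr5:87591612-87591861, minus strand), with capitals marking a nuclear receptor element, AGGTCA on either strand, at bases −113 to −108.
Sult1e1: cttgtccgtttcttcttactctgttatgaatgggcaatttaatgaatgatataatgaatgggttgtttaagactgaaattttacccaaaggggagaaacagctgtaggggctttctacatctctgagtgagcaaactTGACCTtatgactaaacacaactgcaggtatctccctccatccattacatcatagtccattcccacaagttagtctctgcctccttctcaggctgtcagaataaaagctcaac
This element occurs in 14% of 32851 mouse promoter windows of this length, and in 3 of the 10 windows found for 8 of the sulfotransferases. The other 2 with it belong to Sult1b1 and Sult2a8. A full estrogen response element, GGTCA and TGACC with 3 bases between, was found in 0 of the 10, beside 0.0639% of all promoters. A match of letters is a description of the window and not evidence of binding.

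In DIO liver, Sult1e1 was at 5.74, 1.44 and 1.65 CPM with vehicle (mean 2.94 ± 2.43, SD, n = 3). With E2 it was at 20.1, 4.20 and 34.8 CPM (19.7 ± 15.3), and with PaPE-1 at 5.19, 4.86 and 3.04 CPM (4.36 ± 1.16). Replicates 1 and 3 of E2 were the highest of the 9 livers, while E2 replicate 2 lay among the vehicle and PaPE-1 livers, so the groups overlapped. The log2 fold change of E2 against vehicle was 2.75 (SE 0.84), a 6.71-fold higher level, with an unadjusted p of 0.0134 and an adjusted p of 0.879 in edgeR. Over the alternatives it ran from 2.05, without E2 replicate 3, to 3.67, without vehicle replicate 1, and the lowest adjusted p, 0.0575, came without E2 replicate 2 (3.23). PaPE-1 against E2 was −2.16 (SE 0.82, adjusted p = 0.256), and −2.64 without E2 replicate 2, where it passed the threshold (adjusted p = 0.0420). Without E2 replicate 3 that difference was −1.46, and the adjusted p reached 0.575 without E2 replicate 1. With PaPE-1 against vehicle it was 0.58 (SE 0.86, adjusted p = 0.737), and from 0.25 to 1.51 over the alternatives.

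In ob/ob liver the treatments ranked in another order. Sult1e1 was at 12.5, 53.4 and 52.9 CPM with vehicle (39.6 ± 23.5), at 25.3, 17.1 and 25.4 CPM with E2 (22.6 ± 4.74), and at 58.0, 73.6 and 71.7 CPM with PaPE-1 (67.8 ± 8.55). Every PaPE-1 liver lay above every vehicle and E2 liver, and vehicle and E2 livers overlapped through vehicle replicate 1. E2 against vehicle was −0.80 (SE 0.51, adjusted p = 0.299), and without vehicle replicate 1 it was −1.23 with an adjusted p of 0.00171, against −0.53 and 0.572 without vehicle replicate 3. PaPE-1 against E2 was 1.58 (SE 0.51), a 3.00-fold difference that missed the threshold in edgeR (adjusted p = 0.0782). DESeq2 (0.0187) and limma voom (0.0251) put its adjusted p below 0.05, as did edgeR without vehicle replicate 1 (0.000282), and 4 of 15 alternatives in all, the highest adjusted p being 0.243. For PaPE-1 against vehicle the value was 0.78 (SE 0.50, adjusted p = 0.999998).

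The effect of E2 on Sult1e1 in ob/ob liver minus that in DIO liver was −3.56 on the log2 scale (SE 1.008, unadjusted p = 0.00384, adjusted p = 0.136 in edgeR over 14171 genes). Over the alternatives tried, its adjusted p ran from 0.0204, without DIO E2 replicate 2 (−4.04), to 0.337. Sult1e1 was the only one of 10 sulfotransferases at an unadjusted p under 0.05 for this difference, beside 16.9% of all genes, and edgeR called 0, beside 0.0141% of genes. Sult3a1 and Sult5a1, below the filter in ob/ob liver, passed it in this fit through their DIO counts. Their differences between the models were imprecise (SE 1.57 and 1.02 for E2, 2.58 and 1.46 for PaPE-1). DESeq2 called Sult1e1 (adjusted p = 0.0243), beside 2.36% of genes, and limma voom called 0, beside 0.00706%. For the effect of PaPE-1, edgeR called 0 of 10, beside 0% of genes. At an unadjusted p under 0.05 there was 1, Sult1b1 (−0.55, SE 0.25, adjusted p = 0.381), beside 12.1% of genes. DESeq2 called 0, beside 0.981%, and limma voom 0, beside 0%.

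**Figure D3:**
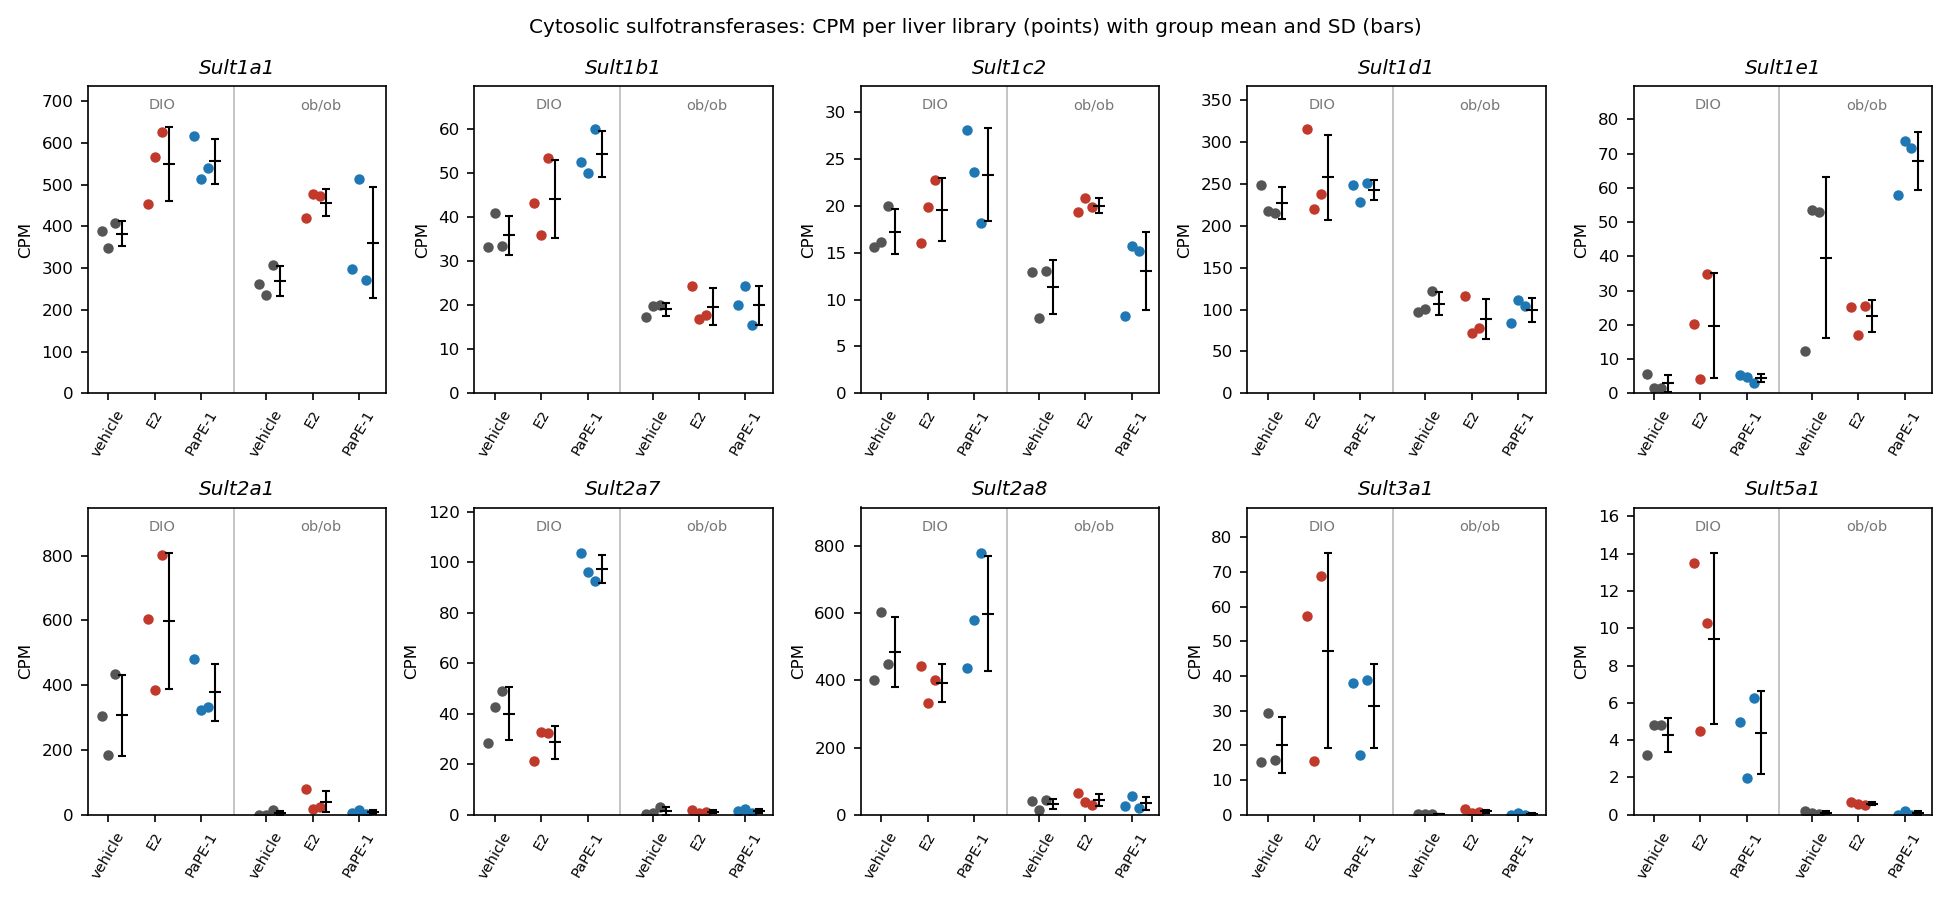
Level of each sulfotransferase (CPM, y axis) in the 6 groups (x axis), with a point for each library and bars for the mean and SD of 3 libraries. Sult1e1 is highest with E2 in 2 of 3 DIO livers and highest with PaPE-1 in all 3 ob/ob livers, and the 3 PaPE-1 livers of the DIO model stand above all others for Sult2a7.

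The 3 Sult2a genes lie near each other on the minus strand of chromosome 7, Sult2a1 at chr7:13530171-13571335, Sult2a8 at chr7:14144611-14180705 and Sult2a7 at chr7:14198976-14226948 (GRCm39). Because close copies can share reads, the first 60 coding bases of these and of the neighbors Sult2a2 and Sult2a3 are shown from GENCODE (GRCm38). They begin at chr7:13837356 (Sult2a1, minus strand), chr7:13733559 (Sult2a2, plus strand), chr7:14122993 (Sult2a3, minus strand), chr7:14492971 (Sult2a7, minus strand) and chr7:14427919 (Sult2a8, minus strand), and capitals mark bases that differ from Sult2a1.
Sult2a1: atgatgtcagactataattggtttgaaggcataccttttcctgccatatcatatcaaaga
Sult2a2: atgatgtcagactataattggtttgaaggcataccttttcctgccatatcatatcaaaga
Sult2a3: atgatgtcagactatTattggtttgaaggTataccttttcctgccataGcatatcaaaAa
Sult2a7: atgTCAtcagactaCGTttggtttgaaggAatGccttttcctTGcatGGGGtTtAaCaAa
Sult2a8: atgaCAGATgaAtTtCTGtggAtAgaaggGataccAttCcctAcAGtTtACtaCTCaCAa
Sult2a2 shows no capital, whereas Sult2a3 matches Sult2a1 at 56 of the 60 bases, Sult2a7 at 42 and Sult2a8 at 34. Over the aligned coding sequence, Sult2a1 was 97.9% identical to Sult2a2, 82.1% to Sult2a7 and 70.8% to Sult2a8. The alignment with Sult2a2 covered 585 of the 858 coding bases of Sult2a1. Of the 100-base windows of the Sult2a1 transcript, 11.4% also occurred in another gene, Sult2a2 or Sult2a5, so part of its reads cannot be assigned and its counts are uncertain. Sult1a1 shared 2.2% of windows with the gene model Gm6939, and the other 8 sulfotransferases shared 0.

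Sult2a1, which sulfates DHEA and bile acids, was abundant in DIO liver and low in ob/ob liver. In DIO liver it was at 305, 183 and 434 CPM with vehicle, 605, 385 and 803 CPM with E2, and 479.7, 322 and 332 CPM with PaPE-1. Replicates 1 and 3 of E2 were the highest of these livers, and E2 replicate 2 overlapped the others. E2 against vehicle was 0.96 (SE 0.34, unadjusted p = 0.0177, adjusted p = 0.898), and 1.19 without E2 replicate 2 (adjusted p = 0.167). For PaPE-1 against vehicle it was 0.30 (SE 0.34, adjusted p = 0.643).

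In ob/ob liver Sult2a1 was at 0.259, 0.698 and 13.4 CPM with vehicle, 79.4, 18.3 and 24.3 CPM with E2, and 4.76, 14.9 and 3.58 CPM with PaPE-1. Every E2 liver lay above every vehicle and PaPE-1 liver, but vehicle replicate 3 was close to the lowest E2 liver and more than an order of magnitude above the other vehicle livers. E2 against vehicle was 3.01 on the log2 scale (SE 1.25, 8.04-fold, unadjusted p = 0.0507, adjusted p = 0.133 in edgeR). Without vehicle replicate 3 it was 6.47 (adjusted p = 0.0439), and limma voom with all libraries gave 4.37 (adjusted p = 0.0243). These were the 2 of 15 alternatives that passed, and without E2 replicate 1 it was 2.07 (adjusted p = 0.302). The value for PaPE-1 against E2 was −2.42 (SE 1.21, adjusted p = 0.215), with an adjusted p of 0.0369 in limma voom. The direction of E2 against vehicle was the same in both models, and the difference of 2.06 between them (SE 1.29) had an adjusted p of 0.445. Without ob/ob vehicle replicate 3 that difference was 5.50 (adjusted p = 0.151), and without ob/ob E2 replicate 1 it was 1.118.

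Sult2a2 is not among the 10 genes and had the highest coding identity to Sult2a1 of the genes aligned. It stood in the same order as Sult2a1 in the ob/ob vehicle livers, at 2.79, 6.02 and 60.8 CPM. It was at 151, 61.9 and 66.7 CPM with E2 and at 18.2, 49.7 and 17.6 CPM with PaPE-1. Its E2 livers again lay above all vehicle livers, by little over vehicle replicate 3, and its fold change did not pass the test (log2 1.98, adjusted p = 0.254).

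**Figure D4:**
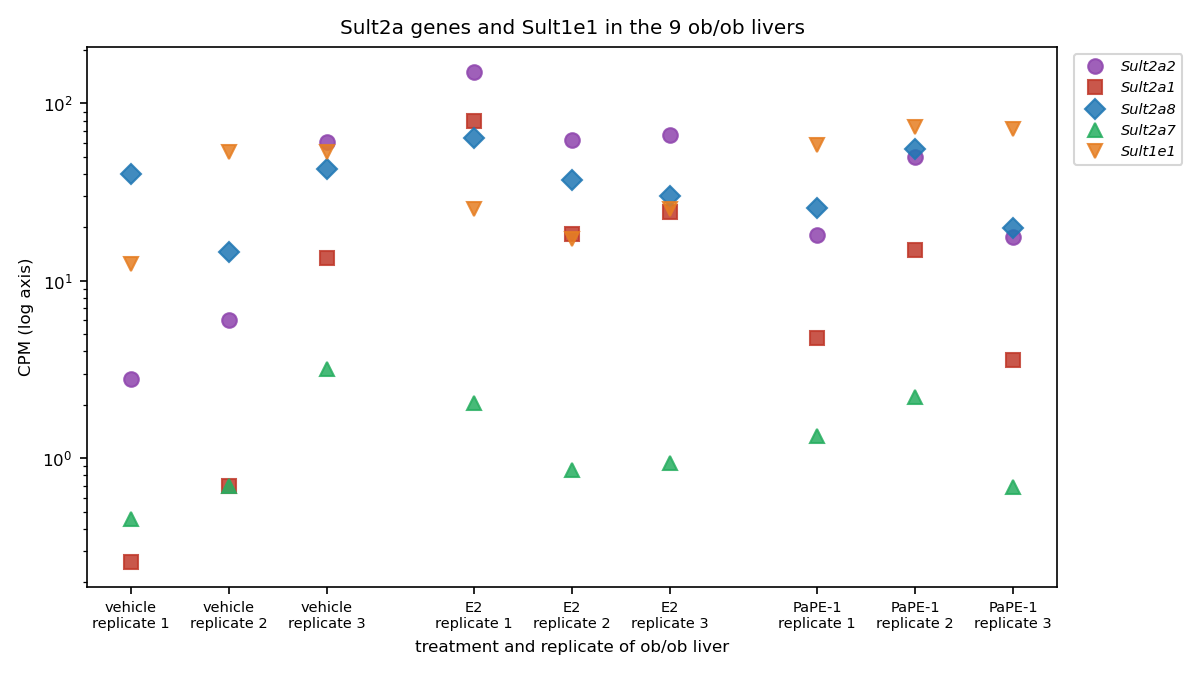
Levels of Sult2a2, Sult2a1, Sult2a8, Sult2a7 and Sult1e1 (CPM, log axis) in the 9 ob/ob livers, ordered by treatment and replicate on the x axis, with a point for each gene and library. In vehicle replicate 3, Sult2a1 stands at 13.4 and Sult2a2 at 60.8, against 0.259 and 2.79 in replicate 1, and Sult1e1 stands at 12.5 in vehicle replicate 1.

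Sult2a7, a further hydroxysteroid sulfotransferase gene, gave the sulfotransferase call of DIO liver. It was at 28.3, 42.7 and 48.9 CPM with vehicle (40.0 ± 10.5, SD, n = 3), at 21.1, 32.8 and 32.3 CPM with E2 (28.7 ± 6.60), and at 103.5, 96.4 and 92.6 CPM with PaPE-1 (97.5 ± 5.55). The PaPE-1 livers lay far above all 6 others, and the vehicle and E2 livers overlapped. Sult2a7 rose with PaPE-1 against E2 by 1.76 on the log2 scale (SE 0.21), 3.39-fold, with an adjusted p of 0.0292 in edgeR. The fold change kept its direction and lay between 1.55 and 1.87 over the alternatives tried, while the adjusted p ran from 5.90e-11 to 0.192. It missed the threshold with limma voom (0.0520) and when E2 replicate 1 (0.0868), E2 replicate 3 (0.0928), PaPE-1 replicate 1 (0.192), replicate 2 (0.0688) or replicate 3 (0.128) was left out. PaPE-1 against vehicle was 1.29 (SE 0.21, 2.44-fold, unadjusted p = 4.31e-05, adjusted p = 0.0707 in edgeR and 8.69e-05 in DESeq2). Of 15 alternatives 6 passed, and the fold change ran from 1.03 to 1.46 with adjusted p up to 0.231, without vehicle replicate 1. For E2 against vehicle it was −0.48 (SE 0.21, unadjusted p = 0.0397, adjusted p = 0.936).

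In ob/ob liver Sult2a7 was low throughout, at 0.454, 0.698 and 3.19 CPM with vehicle, 2.05, 0.854 and 0.936 CPM with E2, and 1.34, 2.20 and 0.692 CPM with PaPE-1. The highest liver was vehicle replicate 3, and the 3 groups overlapped. PaPE-1 against vehicle was −0.12 (SE 0.69, 95% interval −1.65 to 1.41, adjusted p = 0.999998). Without vehicle replicate 3 it turned to 1.28 (adjusted p = 0.999967), and E2 against vehicle, −0.23 with all libraries (SE 0.69), turned to 1.17 (adjusted p = 0.207). The difference between the models in the effect of PaPE-1 was −1.47 (SE 0.74, adjusted p = 0.444), and −0.027 without ob/ob vehicle replicate 3.

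Sult2a8, a bile acid sulfotransferase of mouse liver, was at 402, 603 and 448 CPM with vehicle, 443, 331 and 400.1 CPM with E2 and 438, 579 and 778 CPM with PaPE-1 in DIO liver. The 3 groups overlapped. Between PaPE-1 and E2 the difference was 0.61 (SE 0.22, unadjusted p = 0.0156, adjusted p = 0.211). In the ob/ob model it was at 39.8, 14.5 and 42.5 CPM with vehicle, 64.2, 36.9 and 30.0 CPM with E2 and 25.7, 55.4 and 19.7 CPM with PaPE-1, again with overlap and with an adjusted p of 0.621 for E2 against vehicle (log2 0.43, SE 0.56).

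Among the phenol sulfotransferases, Sult1a1 (chr7:126272037-126289615) and Sult1c2 (chr17:54136665-54152986, both minus strand of GRCm39) were the genes called with E2 in ob/ob liver. The windows before their start sites are shown side by side because these genes were called in the same direction in the same comparison (RefSeq, GRCm38.p6, chr7:126676419-126676668 and chr17:53845959-53846208, minus strand). Capitals mark an HNF1 element, GTTAAT on either strand, at bases −232 to −227 of Sult1a1.
Sult1a1: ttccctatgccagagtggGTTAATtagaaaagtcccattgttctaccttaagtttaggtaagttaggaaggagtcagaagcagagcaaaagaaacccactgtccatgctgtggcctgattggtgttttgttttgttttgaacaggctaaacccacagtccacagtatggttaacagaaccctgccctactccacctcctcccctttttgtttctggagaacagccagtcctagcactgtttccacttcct
Sult1c2: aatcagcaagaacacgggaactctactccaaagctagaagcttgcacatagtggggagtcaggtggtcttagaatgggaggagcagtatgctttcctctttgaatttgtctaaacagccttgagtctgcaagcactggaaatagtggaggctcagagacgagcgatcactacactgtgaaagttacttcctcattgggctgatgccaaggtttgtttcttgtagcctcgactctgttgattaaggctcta
The Sult1c2 window held none of the 4 motifs searched. The HNF1 element occurs in 6.43% of all promoter windows and in 2 of the 10 sulfotransferase windows, the other being that of Sult1d1.

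Sult1a1, the main phenol sulfotransferase of liver, was at 263, 236 and 307 CPM with vehicle (269 ± 35.8, SD, n = 3), 419, 477 and 473 CPM with E2 (456 ± 32.0) and 297, 514 and 270 CPM with PaPE-1 (360 ± 133) in ob/ob liver. All E2 livers lay above all vehicle livers, and PaPE-1 replicate 2 was the highest of the 9 while the other PaPE-1 livers were within the vehicle range. Sult1a1 rose with E2 by 0.76 on the log2 scale (SE 0.21), 1.70-fold, with an adjusted p of 0.0237 in edgeR. The adjusted p ranged from 0.00272 to 0.0915 over the alternatives, above 0.05 without E2 replicate 2 (0.0915), E2 replicate 3 (0.0704), vehicle replicate 1 (0.0636) or vehicle replicate 2 (0.0799). PaPE-1 against vehicle was 0.42 (SE 0.21, adjusted p = 0.999998). PaPE-1 against E2 was −0.34 (SE 0.21, adjusted p = 0.272), and −0.67 without PaPE-1 replicate 2, where it passed (adjusted p = 0.0101).

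In DIO liver Sult1a1 was at 389, 349 and 407 CPM with vehicle (382 ± 30.0), 453, 567 and 627 CPM with E2 (549 ± 88.4) and 616, 513 and 539 CPM with PaPE-1 (556 ± 53.4). Every treated liver lay above every vehicle liver, and the E2 and PaPE-1 livers overlapped. E2 against vehicle was 0.52 (SE 0.15, unadjusted p = 0.00518, adjusted p = 0.838) and PaPE-1 against vehicle 0.54 (SE 0.15, unadjusted p = 0.00410, adjusted p = 0.0996 in edgeR and 0.0182 in DESeq2, and up to 0.308 over the alternatives). These 2 comparisons share the vehicle livers. PaPE-1 against E2 was 0.02 (SE 0.15, 95% interval −0.32 to 0.35). The effect of E2 on Sult1a1 differed between the models by 0.23 (SE 0.27, adjusted p = 0.704).

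Sult1c2 was at 12.97, 8.03 and 13.06 CPM with vehicle (11.4 ± 2.88), 19.3, 20.9 and 19.9 CPM with E2 (20.03 ± 0.780) and 8.25, 15.8 and 15.2 CPM with PaPE-1 (13.1 ± 4.19) in ob/ob liver. The E2 livers lay above all 6 others. Sult1c2 rose with E2 by 0.81 (SE 0.23), 1.75-fold, with an adjusted p of 0.0287 in edgeR. The call was lost without E2 replicate 1 (0.0569), replicate 2 (0.107) or replicate 3 (0.0748), without vehicle replicate 2 (0.0766), and after removal of the trend of fold change with gene length (log2 0.58, adjusted p = 0.142). Between PaPE-1 and E2 the difference was −0.61 (SE 0.23, adjusted p = 0.0842, and 0.0497 without vehicle replicate 2). In DIO liver Sult1c2 ranged from 15.7 to 28.1 CPM, and PaPE-1 against vehicle was 0.44 (SE 0.19, unadjusted p = 0.0367, adjusted p = 0.207) with overlapping groups.

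Sult1b1, which sulfates thyroid hormones, was at 33.2, 40.9 and 33.5 CPM with vehicle, 43.1, 35.8 and 53.5 CPM with E2 and 52.6, 50.1 and 60.04 CPM with PaPE-1 in DIO liver. The PaPE-1 livers lay above all vehicle livers, and the E2 livers overlapped both. PaPE-1 against vehicle was 0.60 (SE 0.16, 1.51-fold, unadjusted p = 0.00288, adjusted p = 0.0906 in edgeR and 0.0231 in DESeq2, and up to 0.255 over the alternatives). In the ob/ob model it ranged from 15.5 to 24.4 CPM with all groups overlapping, and PaPE-1 against vehicle was 0.06 (SE 0.18). Sult1d1, a catecholamine sulfotransferase, ranged from 215 to 315 CPM in the DIO model and from 71.9 to 122 CPM in the ob/ob model. Its groups overlapped in all 6 comparisons, and its log2 fold changes lay between −0.27 and 0.18, with none at an unadjusted p under 0.05. Without ob/ob E2 replicate 1, at 117 CPM the highest of the E2 livers, E2 against vehicle was −0.52 with an adjusted p of 0.0230, the only one of 15 alternatives that passed.

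Sult3a1 (chr10:33727016-33755471, plus strand), an amine sulfotransferase, and Sult5a1 (chr8:123869582-123885170, minus strand) are not neighbors but varied together across the livers. After centring within each model, the correlation of their log2 CPM was 0.885 over the 18 libraries, which share treatments and, within a library, depth. In the ob/ob libraries Sult3a1 had at most 24 reads and Sult5a1 at most 10, so that part of the correlation rests on low counts. The windows before their start sites are shown because of this correlation (RefSeq, GRCm38.p6, chr10:33857472-33857721, plus strand, and chr8:123158281-123158530, minus strand). Capitals mark a STAT5 motif, TTC and GAA with 3 bases between, at bases −109 to −101 of Sult3a1.
Sult3a1: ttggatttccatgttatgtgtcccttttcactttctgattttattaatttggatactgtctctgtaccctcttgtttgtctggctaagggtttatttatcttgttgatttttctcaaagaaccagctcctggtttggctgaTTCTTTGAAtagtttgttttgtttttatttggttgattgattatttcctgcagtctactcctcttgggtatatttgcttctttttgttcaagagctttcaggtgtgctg
Sult5a1: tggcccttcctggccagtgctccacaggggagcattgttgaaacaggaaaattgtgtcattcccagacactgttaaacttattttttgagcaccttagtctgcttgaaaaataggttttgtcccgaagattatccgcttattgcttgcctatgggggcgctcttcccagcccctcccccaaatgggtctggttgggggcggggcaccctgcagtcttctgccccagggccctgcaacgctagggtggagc
The STAT5 motif occurs in 7.02% of all promoter windows and in 1 of the 10 sulfotransferase windows, and the Sult5a1 window held none of the 4 motifs.

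Sult3a1 was at 15.1, 29.5 and 15.7 CPM with vehicle, 57.4, 15.5 and 68.8 CPM with E2 and 38.0, 17.3 and 38.8 CPM with PaPE-1 in DIO liver. Sult5a1 was at 3.21, 4.80 and 4.80 CPM with vehicle, 13.5, 4.49 and 10.3 CPM with E2 and 4.95, 1.94 and 6.28 CPM with PaPE-1. For both genes E2 replicates 1 and 3 were the highest livers and E2 replicate 2 was within the vehicle range. E2 against vehicle was 1.23 for Sult3a1 (SE 0.59, unadjusted p = 0.0729) and 1.14 for Sult5a1 (SE 0.46, unadjusted p = 0.0319, adjusted p = 0.936). Without E2 replicate 2 the values were 1.65 (adjusted p = 0.157) and 1.48 (adjusted p = 0.136). PaPE-1 against E2 was −0.59 for Sult3a1 (SE 0.58) and −1.12 for Sult5a1 (SE 0.46, adjusted p = 0.263).

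Both genes in ob/ob liver were below the filter and were not tested there with all libraries. The vehicle libraries held 6 reads of Sult3a1 in all, the E2 libraries 44 and the PaPE-1 libraries 9, and for Sult5a1 the sums were 5, 27 and 3. In CPM, Sult3a1 was at 0.130, 0.175 and 0.118 with vehicle, 1.58, 0.525 and 0.803 with E2 and 0.0671, 0.607 and 0 with PaPE-1. Sult5a1 was at 0.195, 0.0873 and 0.0591 with vehicle, 0.660, 0.591 and 0.535 with E2 and 0, 0.228 and 0 with PaPE-1. The E2 livers of both genes lay above all vehicle livers, at levels close to the limit of detection. With no filter on low counts, edgeR gave E2 against vehicle an adjusted p of 0.0101 for Sult3a1 and 0.0505 for Sult5a1, and PaPE-1 against E2 0.0349 and 0.0174. Sult3a1 also passed the filter in fits that left out 1 library, unless that library was E2 replicate 1 or 3. Those 2 livers held its highest counts, 24 and 12 reads, and no other ob/ob library had more than 8. It thus passed only through the E2 group, so these fits cannot serve as a test of E2 against vehicle. The adjusted p of that comparison in edgeR was 0.0382, 0.0143 and 0.0197 without PaPE-1 replicate 1, 2 and 3. It was 0.0713 to 0.103 without a vehicle library and 0.0601 without E2 replicate 2.

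Genes most like a sulfotransferase were named by the correlation of model-centred log2 CPM over the 18 libraries among 11832 genes, for 3 members. Genes with only a Gm, LOC or Rik identifier as symbol were left out. For Sult1e1 they were Dnajb1 (0.895), Cyp39a1 (0.889), Fkbp5 (0.873), Ube2g2 (0.859) and Glrx (0.854). Cyp39a1 hydroxylates an oxysterol on the way to bile acids, and Fkbp5 is a classical glucocorticoid-responsive gene. For Sult2a7 they were Tprkb (0.900), Klf1 (0.846), Ahcy (0.835), Eif1 (0.826) and Gcdh (0.822). For Sult3a1, Slc22a26 (0.892), Cyp2c69 (0.890), Sult5a1 (0.885), Rdh16f2 (0.884) and Mon1a (0.871) were closest, of which Slc22a26 and Cyp2c69 are genes known to be higher in female liver. The Sult3a1 counts of the ob/ob libraries in these correlations were close to the limit of detection. Sult2a7 was also low in the ob/ob libraries, at 7 to 54 reads, with the most in vehicle replicate 3.

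The rest of the pathway was described from lists chosen with earlier results of these data known. Of 11 other sulfotransferase genes, 6 were tested in the DIO model and 4 in the ob/ob model, and 0 were called in any comparison by edgeR. At an unadjusted p under 0.05 there was 1 higher with E2 against vehicle in DIO liver, beside 5.22% of all genes in either direction. PaPE-1 against E2 had 1 lower in each model, beside 17% of genes in DIO and 33.8% in ob/ob liver. The lower genes were Sult3a2 in DIO liver (−1.996, SE 0.54, adjusted p = 0.184) and Sult2a3 in ob/ob liver (−3.32, SE 1.26, adjusted p = 0.115). Sult4a1, a brain-enriched family member, was at 1.53 for E2 against vehicle in ob/ob liver (adjusted p = 0.154). Of 33 genes for PAPS supply, sulfate transport and removal of sulfate, E2 against vehicle in ob/ob liver called 3 higher and 4 lower of 28 tested, beside 9.81% and 12.3% of all genes, and PaPE-1 against E2 called 2 higher and 2 lower, beside 10% and 7.45%. These counts are near the shares over all genes. Arsa, a lysosomal sulfatase, fell by 1.51 on the log2 scale with E2 (SE 0.17, adjusted p = 0.000857), and Bpnt2, a Golgi phosphatase of the PAPS product PAP, fell by 0.62 (SE 0.14, adjusted p = 0.0103). The mitochondrial or cytosolic sulfur enzymes Mpst and Tst rose by 0.72 (SE 0.15, adjusted p = 0.00841) and 0.66 (SE 0.16, adjusted p = 0.0114). No gene of that list was called in the other 4 comparisons within a model.

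Of 27 receptors and transcription factors listed as regulators of drug and steroid metabolism, 24 were tested, and E2 against vehicle in ob/ob liver called 6 higher and 1 lower, beside 9.81% and 12.3% of all genes. Cux2, a repressor found mainly in female liver, was at 1.10 to 3.43 CPM with vehicle and 13.5 to 16.1 CPM with E2, and rose by 2.84 (SE 0.41, adjusted p = 0.00364). Prlr, the prolactin receptor, rose by 1.08 (SE 0.21, adjusted p = 0.00663), and Nr2f2, an orphan nuclear receptor, fell by 0.63 (SE 0.11, adjusted p = 0.00403). Of 33 genes known to be higher in female liver, Cux2 among them, 14 of 31 tested were called higher and 3 lower with E2 in ob/ob liver, beside the same 9.81% and 12.3%, with a median of 0.59 beside 0.01 over all genes. Of 30 genes known to be higher in male liver, 3 of 25 tested were called higher, near the share over all genes, and 7 lower, with a median of −0.08. In DIO liver E2 called 0 genes of either list in edgeR. Without adjustment, 13 female-biased genes were higher and 3 lower, and 4 male-biased genes were higher and 4 lower, of 33 and 26 tested and beside 5.22% of all genes in either direction.

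Markers of some other cells moved with E2 in ob/ob liver, where Sult1a1 and Sult1c2 were called. Over all genes, 9.81% were called higher and 12.3% lower in that comparison. All 7 neutrophil markers were called higher, with summed levels of 5.12 to 6.03 CPM with vehicle, 88.2 to 346 with E2 and 2.77 to 60.2 with PaPE-1. Of 6 endothelial markers 5 were called higher (124 to 141 CPM summed with vehicle, 219 to 278 with E2), and of 6 macrophage markers 3 (139 to 190 with vehicle, 274 to 378 with E2). Of 4 lymphocyte markers tested 1 was called higher. None was called among cholangiocyte (0 of 5), stellate (0 of 6) and erythroid markers (0 of 5). The summed hepatocyte markers were also higher, at 82096 to 109014 CPM with vehicle and 137946 to 152961 with E2, with 4 of 8 called higher and 1 lower. In DIO liver, where Sult2a7 was called, the neutrophil markers summed to 8.68 CPM or less and the hepatocyte markers to 90773 to 120451 CPM with E2 and 100494 to 121048 with PaPE-1. Macrophage markers summed to 301 to 421 CPM with E2 and 198 to 288 with PaPE-1, with 3 of 6 lower without adjustment and a median of −0.72. Stellate markers summed to 296 to 349 and 253 to 286 CPM, with 3 of 6 lower and a median of −0.15. Of 6 endothelial markers 2 were lower, and of 8 hepatocyte markers 2 were higher. These unadjusted counts stand beside 17% of all genes in either direction. With PaPE-1 against vehicle in ob/ob liver, 5 of 5 erythroid markers were higher at an unadjusted p under 0.05, beside 2.65% of all genes in either direction. Their sums overlapped, at 272 to 512 CPM with vehicle and 378 to 2660 with PaPE-1. The part of these cells in the sulfotransferase values was not tested.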

How the data were processed

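Liver RNA of ovariectomized DIO and ob/ob mice was sequenced as 3 libraries per group. Per the labels and file headers, the authors converted base calls with CASAVA 1.8.2, aligned reads with STAR 2.7.6a and counted them per gene against RefSeq genes of GRCm39 with featureCounts 2.0.0 (strand option 2), so the deposited values are raw read counts. Reads that map to more than one place, or to overlapping genes, are left out by default, which can lower counts of close copies such as Sult2a1 and Sult2a2.

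Each model was fitted separately over its 9 libraries in edgeR 4.0.16 (R 4.3.3) with TMM normalization, the filterByExpr filter and robust quasi-likelihood tests, adjusted by Benjamini-Hochberg over all genes tested (threshold 0.05). Differences between the models were contrasts in one fit over 18 libraries. DESeq2 1.42.0, limma voom 3.58.1, DESeq2 size factors, no filter, the groups compared alone, removal of a length trend (loess, span 0.5) and leaving out each library were tried. Values in CPM are counts scaled to the effective library size, the counted reads of the genes kept times the TMM factor of the model's fit. Log2 CPM for likeness used a prior count of 2 and genes with a mean of at least 1 CPM, without those named only by a Gm, LOC or Rik identifier. An exact permutation of 3 against 3 libraries cannot go below p = 0.1, so none was used. The procedure was tested on simulated data. Those data held no outlying libraries, so the simulation does not bear on results that turn on single libraries.

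The 10 sulfotransferases, the gene lists and the tests were chosen with earlier results of these data known. All 10 were named. Of the other sulfotransferases and the PAPS list, up to 4 genes each with the smallest adjusted p over the 6 comparisons were named, of the regulators up to 3, and for Sult1e1, Sult2a7 and Sult3a1 the 5 most similar genes. The authors' 4 tables of DESeq2 fold changes and p-values against vehicle and 36 further columns of per-sample values were not used. Promoter windows were matched by symbol in RefSeq (GRCm38.p6) for 8 of the 10 genes.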

Additional observations from a re-analysis of the deposited data

How the results depend on the processing

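With 3 libraries per group and adjustment over all genes, the number of calls depended on the test and on single libraries, and the cause was not tested. Of the sulfotransferase fold changes and differences between the models, 1176 alternatives kept direction and side of the threshold, 26 passed it newly, 15 lost it and 53 changed sign. Most of the 1176 were results without a call that stayed without one. All 15 losses fell on the sulfotransferase calls of the main fits. The call held in 9 of 15 alternatives for Sult2a7 (PaPE-1 against E2, DIO liver). With E2 against vehicle in ob/ob liver it held in 11 of 15 for Sult1a1 and 10 of 15 for Sult1c2. No paired analysis was possible because the labels carry no replicate numbers that pair libraries across groups. All genes called, beside 0 with edgeR for PaPE-1 against vehicle in DIO liver, were 752 with DESeq2, 385 with no filter and 773 with the compared groups alone. For E2 against vehicle in DIO liver (0) they were 24 with DESeq2 and 1 with no filter. For PaPE-1 against E2 in DIO liver (5) they were 238 with DESeq2, 0 with voom, 56 with no filter, 1 with the length trend removed and 2 with the compared groups alone. For PaPE-1 against vehicle in ob/ob liver (0) they were 2 with DESeq2 and 1 with no filter. For the difference between models in the effect of E2 (2) they were 334 with DESeq2, 1 with voom, 120 with no filter and 12 with the length trend removed, and for PaPE-1 (0) 139 with DESeq2 and 5 with no filter. Sulfotransferases called for PaPE-1 against vehicle in DIO liver (0) were 3 with DESeq2, 2 with no filter and 3 with the compared groups alone. For PaPE-1 against E2 they were 0 with voom for the DIO model (1), and in ob/ob liver (0) 1 with DESeq2, 2 with voom, 2 with no filter (Sult3a1 and Sult5a1) and 1 with the compared groups alone. For E2 in ob/ob liver (2) the count was 1 with the length trend removed, 3 with voom (Sult2a1 added) and 3 with no filter (Sult3a1 added), and for the difference between models in the effect of E2 (0) it was 1 with DESeq2.

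Leaving out each library in turn, all genes called ranged from 0 to 611 for PaPE-1 against vehicle (highest without DIO E2 replicate 1), 0 to 133 for E2 against vehicle and 0 to 796 for PaPE-1 against E2 in DIO liver (both highest without E2 replicate 2). In ob/ob liver they ranged from 0 to 6 for PaPE-1 against vehicle (highest without PaPE-1 replicate 3), 778 to 3328 for E2 against vehicle (2972 with all) and 491 to 2844 for PaPE-1 against E2 (2344 with all), both lowest without E2 replicate 2. For the difference between models they ranged from 0 to 831 for E2 (highest without DIO E2 replicate 2) and 0 to 60 for PaPE-1 (highest without DIO PaPE-1 replicate 2). Sulfotransferases called ranged from 0 to 2 for PaPE-1 against vehicle and for PaPE-1 against E2 in the DIO model. For E2 against vehicle in ob/ob liver they ranged from 0 (without E2 replicate 2 or 3 or vehicle replicate 2) to 3. The 3 came without vehicle replicate 3 or any 1 PaPE-1 library, the latter adding Sult3a1, which passed the filter only through E2 livers. For PaPE-1 against E2 in ob/ob liver they ranged from 0 to 2 (without PaPE-1 replicate 2, again with Sult3a1). They ranged from 0 to 1 for the difference between models in the effect of E2 (without DIO E2 replicate 2).

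Signs turned for fold changes near 0 or with wide intervals. PaPE-1 against vehicle in DIO liver gave −0.16 for Sult5a1 with voom and −0.16 with the length trend removed. In ob/ob liver Sult2a7 gave 0.17 for PaPE-1 and 0.13 for E2 with voom, and Sult1b1 gave −0.0086 for E2 with the length trend removed. That removal also gave −0.0081 for Sult2a7 in the difference between models in the effect of E2 and 0.13 for Sult3a1 in that of PaPE-1. Leaving out libraries, PaPE-1 against vehicle ranged from −0.32 to 0.39 for Sult5a1 in the DIO model, and in ob/ob liver from −0.099 to 0.22 for Sult1b1, −0.18 to 0.013 for Sult1d1, −0.28 to 4.05 for Sult2a1, −0.57 to 1.28 for Sult2a7 and −0.51 to 0.32 for Sult2a8. E2 against vehicle in ob/ob liver ranged from −0.15 to 0.15 for Sult1b1 and −0.75 to 1.17 for Sult2a7. PaPE-1 against E2 ranged from −0.10 to 0.13 for Sult1a1 and −0.19 to 0.085 for Sult1d1 in the DIO model, and from −0.14 to 0.22 for Sult1b1, −0.34 to 0.64 for Sult2a7 and −0.94 to 0.018 for Sult2a8 in ob/ob liver. The difference between models in the effect of PaPE-1 ranged from −0.45 to 0.056 for Sult1a1, −0.42 to 0.014 for Sult1c2, −0.74 to 0.54 for Sult1e1, −0.55 to 3.74 for Sult2a1, −0.81 to 0.021 for Sult2a8 and −2.54 to 0.56 for Sult3a1, and that of E2 from −0.32 to 1.64 for Sult2a7.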
